A study of Mus musculus with 5 samples.

Results

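Mitochondria join and divide all the time, and the genes described here encode the machinery of that cycle and of the making of new mitochondria. The mitofusins MFN1 and MFN2 tether and fuse outer membranes, OPA1 fuses inner membranes and shapes cristae, and the dynamin DRP1 (gene Dnm1l) is drawn from the cytosol to receptors such as MFF and FIS1, where it constricts the organelle. The coactivators of the PGC-1 family act through nuclear factors such as NRF1 to raise transcription of mitochondrial genes, among them Tfam and Polg, which encode the packaging factor and the polymerase of mitochondrial DNA. In fibroblasts the balance of fusion and fission sets whether mitochondria form long networks or short fragments.

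The 10 genes were chosen by symbol: 3 of fusion (Mfn1, Mfn2 and Opa1), 3 of fission (Dnm1l, Mff and Fis1) and 4 of mitochondrial DNA maintenance and biogenesis (Tfam, Polg, Nrf1 and Ppargc1b). All 10 are among the 23337 genes of the deposited table, and all 10 passed the filter on low values. Poly-T selected RNA was sequenced from 5 libraries of mouse embryonic fibroblasts, 2 labelled SIRT3 -/- (KO) and 3 labelled wild type (WT), all of strain 129Sv, immortalized with SV40T and grown in normal conditions. The protein SIRT3 removes acetyl groups from enzymes of the mitochondrial matrix. No label says whether the libraries of a genotype are separate cultures or how many lines were made, so each p-value reflects only how far these libraries spread, and that spread may be technical. In bulk RNA, fewer cells of a type and less RNA per cell cannot be told apart.

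Whole reads recovered from the deposited values came to 33473103 and 33579031 in the libraries labelled KO, and to between 37396488 and 41758681 in those labelled WT. Sirt3, the targeted gene, had 200.4 and 216.8 normalized counts (reads divided by the authors' size factor of each library) in the libraries labelled KO, against 169.7, 149.4 and 118.4 in those labelled WT. These are totals per gene, which cannot show a deleted exon. If the allele gives no transcript, they go against the label, so every direction is given between libraries as labelled. Sirt3 had a log2 fold change of 0.53 (limma, adjusted p = 0.0044), which missed the threshold without KO replicate 2 (0.47, adjusted p = 0.0769) and relative to the median of the tested genes within 5 Mb (0.22, adjusted p = 0.232). Of 12 fibroblast markers 10 averaged over 1 RPKM (reads scaled to transcript length and library size), and their summed level was 4912 to 5026 RPKM in the libraries labelled KO and 5708 to 5904 RPKM in those labelled WT. Single markers went either way: Pdgfra was at 4.77 and 5.26 RPKM in the libraries labelled KO, against 79.4, 81.0 and 80.8 RPKM in those labelled WT, while Col1a2 was at 718 and 758 RPKM in the libraries labelled KO, against 486, 494 and 506 RPKM in those labelled WT. The part of such marker differences in the values below was not tested. The 4 neuronal markers summed to 10.5 to 11.3 RPKM in the libraries labelled KO and 5.94 to 6.26 RPKM in those labelled WT. Of these 4, Map2 alone averaged over 1 RPKM, and Syn1 was at 0.42 to 1.36 RPKM. The lists for epithelium, endothelium, skeletal muscle, macrophages and blood, and adipocytes summed to at most 1.29 RPKM in any library. The defining muscle gene Myod1, the neuronal genes Rbfox3 and Snap25 and the adipocyte genes Adipoq and Cidea were at 0 in all 5 libraries. The muscle gene Acta1 was at 1.27 and 0.852 RPKM in the libraries labelled KO, against 0.267, 0.205 and 0.140 RPKM in those labelled WT. The fibroblast markers Lum and Fap were at most 0.0144 and 0.0465 RPKM in any library.

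Promoters were searched for the motifs of 2 known activators of mitochondrial genes, NRF1 and the ETS factor GABP. RefSeq promoter windows (GRCm38.p6, 250 bases before to 50 after each start) were at hand for 9 of the 10 genes, all but Ppargc1b. The NRF1 motif, which is GCGCA followed at once by its reverse complement and so reads alike on both strands, stood in the window of 1 gene, Opa1, against 1.07% of all 27025 genes with a window. The ETS motif CCGGAAG, searched on both strands, stood in windows of 5 genes, against 9.93% of all genes. A gene with more windows has more chances of a match, and the 9 genes had 15 windows. Of all 32851 windows, 0.97% held the NRF1 motif and 8.86% the ETS motif. No gene of the 9 with a window had a match to both, so the matches do not overlap. The matches are printed with their flanks from 5′ to 3′ on the strand of the gene, with the motif in capitals, to show that the ETS matches of Mfn1, Polg and Tfam lie 44, 38 and 47 bases before the start of their window's transcript. That start can lie inside the gene's outermost span, which is the span given with each gene. It does so for the printed matches of Mfn1, Opa1, Dnm1l, Polg and Tfam.
Opa1, NRF1 motif 59 bases before its window's start, chr16:29579265-29579294, plus strand: gtggctccccGCGCATGCGCatgtcatccg
Mfn1, ETS motif, chr3:32529427-32529455, plus strand: gatccgaagcgCCGGAAGtagccgcccct
Tfam, ETS motif, chr10:71238074-71238102, minus strand: cctgccgcggaCCGGAAGtccgggcttcc
Polg, ETS motif, chr7:79466294-79466322, minus strand: gaggacctcacCCGGAAGtccctctgcac
Fis1, ETS motif 18 bases before one of its starts, chr5:136953246-136953274, plus strand: ggaggcaccacCCGGAAGttcaggcttcc
Dnm1l, ETS motif on the opposite strand, beginning 13 bases after a start, chr16:16358546-16358574, minus strand: gctgtcgcttcCTTCCGGccgctgaggac
A second window of Fis1 held a further ETS match. The windows of Mfn2, Nrf1 and Mff held neither string of letters. A match describes the sequence and is no evidence of binding in these cells.

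Per transcript length, the fission receptors were the most abundant of the 10 and the coactivator gene Ppargc1b by far the least. Averaged over the 5 libraries, Mff stood at 48.9 RPKM, Fis1 at 47.4, Mfn2 at 38.1, Dnm1l at 35.3, Polg at 30.4, Opa1 at 18.6, Nrf1 at 15.1, Tfam at 13.6, Mfn1 at 13.2 and Ppargc1b at 0.533 RPKM. Neighbours in this order whose ranges over the libraries overlapped were Mff with Fis1, Mfn2 with Dnm1l, Nrf1 with Tfam, and Tfam with Mfn1. The other steps were clear in every library, the widest being that from Mfn1, never under 12.6 RPKM, to Ppargc1b, never above 0.709 RPKM. Among all tested genes, Mff had a higher mean RPKM than 87.5% and Ppargc1b than 13.1%.

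**Figure D1:**
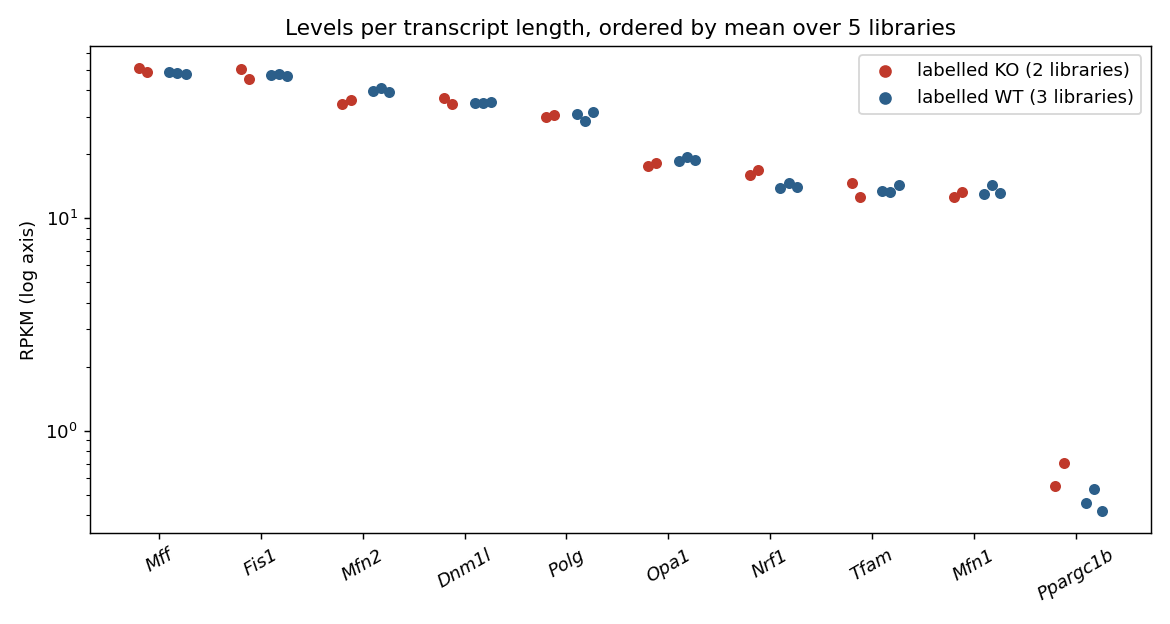
Level of each gene per transcript length (RPKM, log axis) in the 2 libraries labelled KO (left points of each gene) and the 3 labelled WT (right points), ordered by the mean over all libraries. The 9 genes other than Ppargc1b lie between 12.6 and 50.9 RPKM, and Ppargc1b lies between 0.418 and 0.709 RPKM.

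As a group these transcripts had small differences between the libraries as labelled. In the limma fit to all 13062 tested genes, 1 of the 10 rose (Nrf1) and 1 fell (Mfn2) under the label KO, by an adjusted p below 0.05, while 65.3% of all tested genes were called, 32.6% in each direction. The median size of the log2 fold change was 0.052 for the 10 genes and 0.298 for all tested genes. That comparison was not matched by level: except Ppargc1b, each of the 10 exceeded at least 57.9% of tested genes in mean RPKM. The median signed value was 0.012 for the 10 genes and -0.0023 for all. For 5 of the 10 genes the groups stood apart in normalized counts, against 75.4% of all tested genes. The same 2 genes, and in the same directions, were the ones called by edgeR on whole reads of 4 libraries, where 62.0% of tested genes were called (31.7% higher, 30.3% lower), and by DESeq2 on those reads, where 53.3% were (27.1% higher, 26.2% lower). The authors' deposited table called the same 2 as well, with 50.5% of its genes called (25.7% higher, 24.8% lower). Except for Ppargc1b, each gene rested on at least 1661 recovered reads in every library, where counting error alone gives a coefficient of variation of at most 2.45%.

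**Figure D2:**
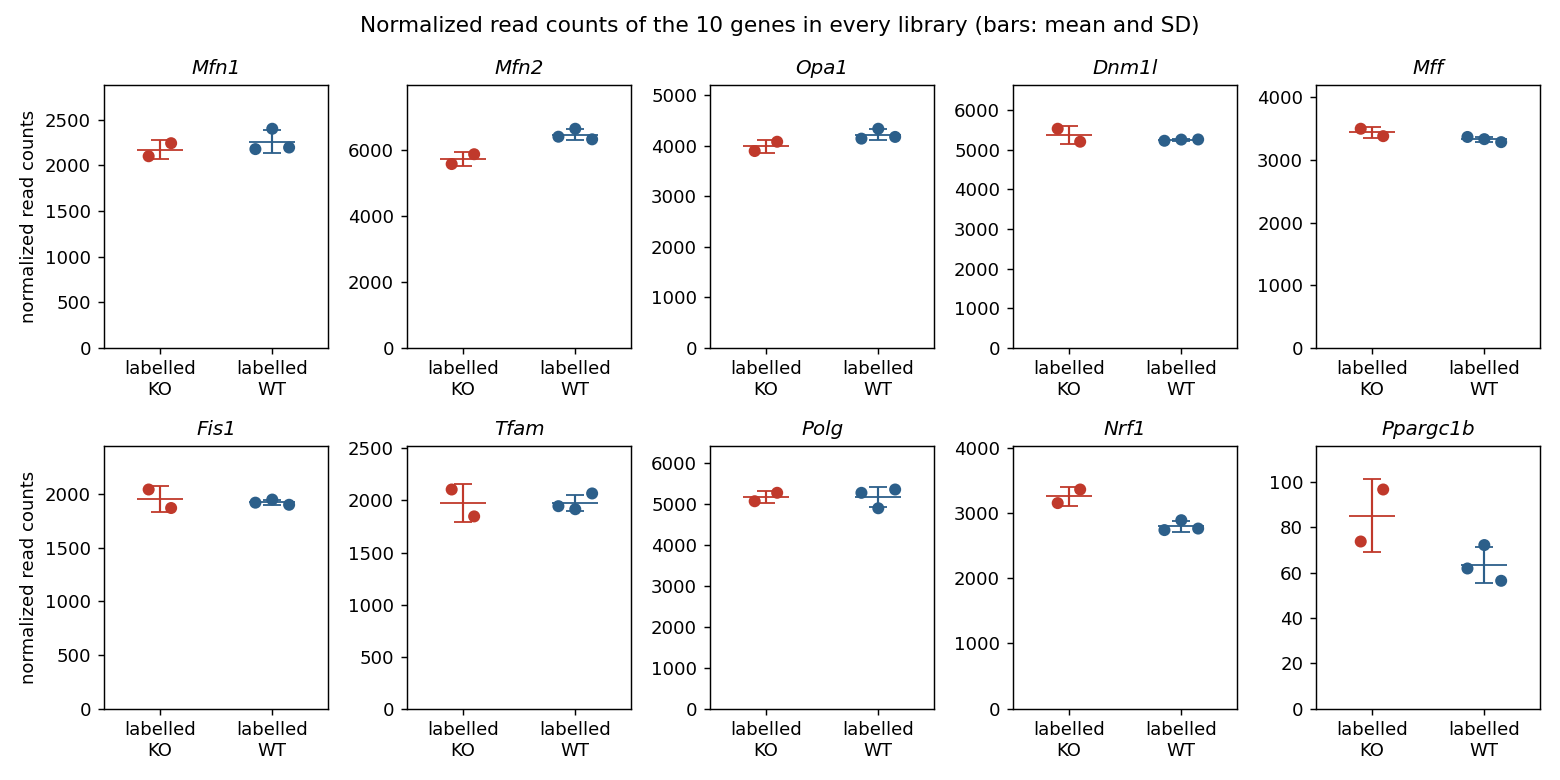
Normalized counts of the 10 genes in every library, with the libraries labelled KO (2 points) left of those labelled WT (3 points), and bars for the mean and SD of each group. Mfn2 is the gene called lower, at 5580.0 and 5878 in the libraries labelled KO against 6331 to 6652 in those labelled WT, and Nrf1 the gene called higher, at 3156 and 3365 against 2742 to 2893.

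Of the fusion genes, Mfn2 was the one called. Mfn2 encodes the mitofusin that also tethers mitochondria to the endoplasmic reticulum, and lies on chromosome 4 from 147873586 to 147904909 (mm10). It had 5580.0 and 5878 normalized counts in the libraries labelled KO, against 6409.8, 6652 and 6331 in those labelled WT. Both values under the label KO lay below all 3 under the label WT. The means were 5729 ± 211 (SD, n = 2) in the libraries labelled KO and 6464 ± 167 (SD, n = 3) in those labelled WT, and the log2 fold change was -0.17 (SE 0.040, limma, adjusted p = 0.00068). The fold was 0.886, with a 95% interval from 0.836 to 0.939. The difference was smaller in size than that of most called genes: 11.4% of them had a smaller one.

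The other mitofusin gene, Mfn1 (chromosome 3, 32529443 to 32579225), did not pass. MFN1 has the same fold and works with OPA1 in fusion. Mfn1 had 2098 and 2241 normalized counts in the libraries labelled KO, against 2176, 2399 and 2193 in those labelled WT, and the groups overlapped. Its log2 fold change was -0.056, with a 95% interval from -0.16 to 0.053 (limma, adjusted p = 0.359).

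On the RPKM scale Mfn2 outweighed Mfn1 in every library, and made up 73.4% and 73.1% of the mitofusin transcripts in the libraries labelled KO, against 75.3%, 74.2% and 74.9% in those labelled WT. The Mfn2 to Mfn1 ratio was 2.75 and 2.72 in the libraries labelled KO, against 3.05, 2.87 and 2.99 in those labelled WT. The groups did not overlap, and the exact permutation test (two-sided) gave p = 0.2, the smallest it can give with 2 and 3 libraries (adjusted p = 0.5 over 5 ratios). Summed RPKM of the 2 genes was 47.1 to 49.2 in the libraries labelled KO and 52.3 to 55.4 in those labelled WT.

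Opa1, the dynamin of the inner membrane (chromosome 16, 29579281 to 29663127), missed the threshold. It had 3894 and 4078 normalized counts in the libraries labelled KO, against 4139, 4335 and 4173 in those labelled WT. The groups lay close but apart, with a log2 fold change of -0.081 and a 95% interval from -0.17 to 0.0061 (limma, adjusted p = 0.0956). With KO replicate 1 alone standing for that label, Opa1 passed at -0.11 (adjusted p = 0.044), and with KO replicate 2 alone it was at -0.048 (adjusted p = 0.365). With a trend against transcript length removed, its value was -0.019 (adjusted p = 0.672).

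The fission genes showed no difference past the threshold, and their intervals were narrow. Dnm1l, for the dynamin DRP1 (chromosome 16, 16312228 to 16359038), had 5530.5 and 5203 normalized counts in the libraries labelled KO, against 5227, 5257 and 5260.2 in those labelled WT. The values under the label WT lay between the 2 under the label KO. In GENCODE M21 an antisense transcript overlaps Dnm1l by 9757 bp. The log2 fold change was 0.032, with a 95% interval from -0.052 to 0.11 (limma, adjusted p = 0.501).

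Mff, for an outer membrane receptor of DRP1 (chromosome 1, 82724890 to 82752390), had 3499 and 3381 normalized counts in the libraries labelled KO, against 3368, 3333 and 3285 in those labelled WT. The groups did not overlap in these counts but did in RPKM, where KO replicate 2 was at 48.5 and WT replicate 1 at 48.9. The log2 fold change was 0.047, with a 95% interval from -0.040 to 0.13 (limma, adjusted p = 0.334).

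Fis1, for a small tail-anchored protein of the outer membrane (chromosome 5, 136953275 to 136966234), had 2041 and 1868 normalized counts in the libraries labelled KO, against 1918, 1947 and 1898 in those labelled WT. The groups overlapped, at a log2 fold change of 0.024 with a 95% interval from -0.083 to 0.13 (limma, adjusted p = 0.701). The Mff to Fis1 ratio on the RPKM scale was 1.01 and 1.07 in the libraries labelled KO, against 1.04, 1.01 and 1.02 in those labelled WT (exact permutation p = 0.6, two-sided). The Dnm1l to Opa1 ratio, fission over fusion dynamin, was 2.10 and 1.89 in the libraries labelled KO, against 1.87, 1.79 and 1.86 in those labelled WT (exact permutation p = 0.2, adjusted p = 0.5 over 5 ratios). The groups of that ratio did not overlap, but KO replicate 2 stood only just above WT replicate 1.

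The other DRP1 receptors were less abundant. Mief1 and Mief2, listed as Smcr7l and Smcr7, encode MiD proteins that bind DRP1. Mief1 made up 13.1% ± 1.01 (SD, n = 2) of the RPKM summed over Mff, Fis1, Mief1 and Mief2 in the libraries labelled KO and 13.0% ± 0.346 (SD, n = 3) in those labelled WT. Mief2 made up 3.27% ± 0.243 (SD, n = 2) in the libraries labelled KO and 2.78% ± 0.235 (SD, n = 3) in those labelled WT. Mief2 rose, with a log2 fold change of 0.28 (limma, adjusted p = 0.0237), but the call was lost without KO replicate 1 (0.0537), KO replicate 2 (0.147), WT replicate 2 (0.0754) or WT replicate 3 (0.0867), and with edgeR (0.0632) and DESeq2 (0.189). Mief1 was at 0.051 (adjusted p = 0.337), and at 0.12 once the median of its tested neighbours within 5 Mb was subtracted (adjusted p = 0.0251). Gdap1, a fission factor of neurons, had at most 1.1 normalized counts in any library.

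Neither gene of mitochondrial DNA maintenance passed the threshold, and both estimates lay close to 0. Tfam, whose product packages mitochondrial DNA and starts its transcription (chromosome 10, 71225468 to 71238328), had 2106 and 1847 normalized counts in the libraries labelled KO, against 1945, 1916 and 2068 in those labelled WT. The 2 libraries labelled KO were the highest and the lowest of the 5. The log2 fold change was -0.0023, with a 95% interval from -0.12 to 0.12 (limma, adjusted p = 0.975). As a fold, that interval ran from 0.920 to 1.08.

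Polg, for the catalytic subunit of the mitochondrial DNA polymerase (chromosome 7, 79446231 to 79467911), had 5071 and 5278 normalized counts in the libraries labelled KO, against 5277, 4899.7 and 5358 in those labelled WT. The groups overlapped almost fully, at a log2 fold change of -0.00023 with a 95% interval from -0.091 to 0.090 (limma, adjusted p = 0.997). Polg overlaps the DNA repair gene Fanci by 4034 bp on the opposite strand in GENCODE M21. Whether counting used strand is not given in the sources used here, so reads of that stretch cannot be told apart. The Tfam to Polg ratio on the RPKM scale was 0.487 and 0.411 in the libraries labelled KO, against 0.432, 0.459 and 0.453 in those labelled WT (exact permutation p = 1.0, two-sided).

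Nrf1, the nuclear factor that drives many respiratory genes, was the member that rose. It lies on chromosome 6 from 30047985 to 30153458. It had 3156 and 3365 normalized counts in the libraries labelled KO, against 2742, 2893 and 2765 in those labelled WT. Both values under the label KO stood above all 3 under the label WT. The means were 3261 ± 148 (SD, n = 2) in the libraries labelled KO and 2800.1 ± 81.7 (SD, n = 3) in those labelled WT, and the log2 fold change was 0.22 (SE 0.046, limma, adjusted p = 0.00026). The fold was 1.16, with a 95% interval from 1.09 to 1.24. The tested genes whose pattern over the 5 libraries was most like that of Nrf1 were Sos1, Nln and Zfand5, by a root mean square difference of centred log2 values of 0.0093, 0.0096 and 0.010. Between Nrf1 and the other 9 genes described here this measure ran from 0.0999 (Mff) to 0.193 (Mfn2).

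Ppargc1b, for the coactivator PGC-1 beta (chromosome 18, 61291445 to 61400756), was low and variable. It had 73.8 and 96.7 normalized counts in the libraries labelled KO, against 61.9, 72.2 and 56.4 in those labelled WT. All values under the label KO were above those under the label WT, the closest pair being 73.8 and 72.2. The fold was 1.33 with a 95% interval from 0.989 to 1.80, and the log2 fold change was 0.41 (SE 0.207, limma, adjusted p = 0.085). It rested on 61 to 87 recovered reads per library, where counting error alone gives a coefficient of variation of 10.7% to 12.8%. With KO replicate 2 alone standing for that label, it passed at 0.61 (adjusted p = 0.0488), and with KO replicate 1 alone it was at 0.22 (adjusted p = 0.446).

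Of the PGC-1 family, the transcript found in quantity was that of Pprc1, the growth-regulated member. Pprc1 was at 74.6 and 82.6 RPKM in the libraries labelled KO, against 43.7, 43.5 and 44.6 RPKM in those labelled WT, and rose by 0.84 on the log2 scale (limma, adjusted p = 2.1e-13). Relative to its neighbours, with a median of 0.51, it was at 0.33. It made up 99.1% of the family's summed RPKM in the libraries labelled KO and 98.8% in those labelled WT. Ppargc1a, the founding member and the form induced in muscle and brown fat, was at 0.064 and 0.096 RPKM in the libraries labelled KO, against 0.088, 0.074 and 0.069 RPKM in those labelled WT (log2 fold change 0.039, adjusted p = 0.933). The Ppargc1b to Nrf1 ratio was 0.034 and 0.042 in the libraries labelled KO, against 0.033, 0.036 and 0.030 in those labelled WT (exact permutation p = 0.4, two-sided).

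Around some of the 10 genes, most of the called genes within 5 Mb went the same way, which is termed a block here. Over all tested genes 32.6% were called in each direction. Around Nrf1, 27 of 47 neighbours were called higher and 2 lower, with a median log2 fold change of 0.32, above that of Nrf1 itself. With the median of the neighbours subtracted from every gene, Nrf1 was at -0.10 and no longer called (limma, adjusted p = 0.0693). Around Tfam, 4 of 40 neighbours were called higher and 24 lower (median -0.27), and around Polg 8 of 64 were called higher and 36 lower (median -0.26).

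Relative to their neighbours' median, Tfam and Polg were higher in the libraries labelled KO, at 0.26 (adjusted p = 0.00036) and 0.26 (adjusted p = 3.1e-05). The median was subtracted as a fixed value, so every p-value after that subtraction leaves out how far the neighbours spread. The neighbours' quartiles were -0.71 and -0.037 for Tfam, and -0.46 and -0.0029 for Polg. Dnm1l, whose neighbours had a median of -0.091, came to 0.12 (adjusted p = 0.0117). Without the subtraction Dnm1l lay between its neighbours' quartiles (-0.30 and 0.088), as did Mfn2 (-0.37 and 0.18) and Nrf1 (0.12 and 0.67). Mfn2, with a neighbour median of -0.071, stayed lower at -0.10 (adjusted p = 0.0313). In that fit 3 of the 10 genes were called higher and 1 lower, where 59.9% of all tested genes were called (29.9% in each direction). Ppargc1b lay among neighbours with a median of 0.20, of which 24 of 47 were called higher, and was at 0.21 relative to them (adjusted p = 0.407). The neighbours of Mfn1, Opa1, Mff and Fis1 had medians between -0.030 and 0.014. The part of these blocks in the values of the 10 genes was not tested.

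**Figure D3:**
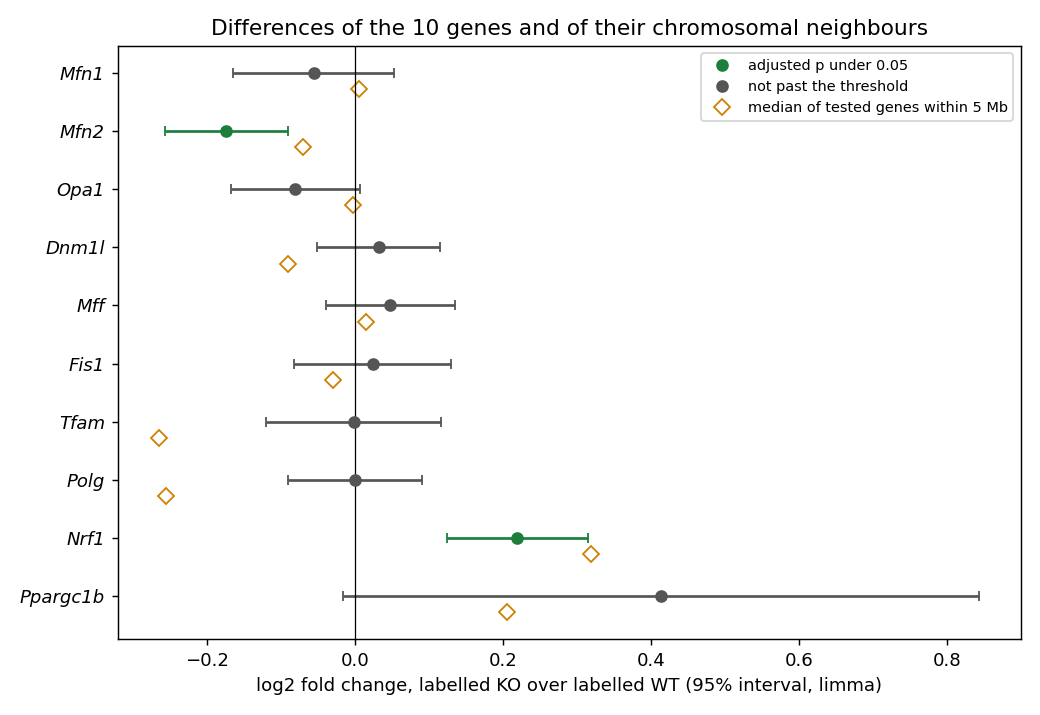
Log2 fold change of each of the 10 genes between the libraries labelled KO and those labelled WT (filled circles, with the 95% interval from limma, green where the adjusted p is under 0.05), and the median log2 fold change of the tested genes within 5 Mb (open diamonds). Nrf1 at 0.22 lies left of its neighbours at 0.32, and Tfam and Polg lie near 0 while their neighbours lie at -0.27 and -0.26.

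Transcript length moved with the difference and with the spread inside a group. Among genes with a mean of at least 500 normalized counts, the median log2 fold change was 0.071 in the 1642 genes of the shortest length class and -0.099 in the 1641 of the longest, of 5 classes. KO replicate 2 minus KO replicate 1 had a median of -0.051 in the shortest class and 0.068 in the longest. Of the 10 genes, those of fusion and Polg, Nrf1 and Ppargc1b were higher in KO replicate 2, by 0.058 to 0.39 on the log2 scale, and Dnm1l, Mff, Fis1 and Tfam were higher in KO replicate 1. With the length trend of each library removed, the calls of Nrf1 (0.27, adjusted p = 6.7e-06) and Mfn2 (-0.14, adjusted p = 0.0017) stood.

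The partners of these genes were gathered in 9 lists on mitochondrial shape, turnover and gene expression. Over all lists, 35 of 89 tested genes rose and 21 fell under the label KO, against 32.6% of all tested genes in each direction, and the median size of the log2 fold change was 0.25. Among fission factors, 4 of 10 rose and 3 fell (median 0.079). Inf2, a formin that builds actin where mitochondria divide, fell by 0.58 and Dnm2, a dynamin, fell by 0.19 (-0.086 relative to its neighbours, adjusted p = 0.0996), while Mtfr1 rose by 0.44 on the log2 scale (limma, adjusted p = 1.1e-10 for Inf2, 0.00073 for Dnm2 and 3.7e-09 for Mtfr1). The count of rises in that list was 1 to 5 over the other settings tried.

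Among genes that assist fusion or process OPA1, 4 of 10 rose and 2 fell (median 0.086). Of all tested genes, 32.6% were called each way. Oma1, the stress-activated protease that cleaves OPA1, had 383.2 and 381.4 normalized counts in the libraries labelled KO, against 462.3, 476.8 and 521.8 in those labelled WT, and fell, with a log2 fold change of -0.35 (limma, adjusted p = 0.0018). Yme1l1, the other OPA1 protease, was at 0.073 (adjusted p = 0.13), and at 0.16 relative to its neighbours (adjusted p = 0.0023). Phb2, a prohibitin, rose by 0.54 (0.27 relative to its neighbours) and Miga1 (listed as Fam73a), a promoter of mitofusin activity, by 0.74. Spg7, a matrix protease subunit, rose by 1.01, among neighbours with a median of 0.99, and relative to them it was at 0.026 and no longer called (adjusted p = 0.692).

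The cristae organizing complex MICOS had 3 of 7 genes higher and 1 lower (median 0.25). Its core gene Immt rose by 0.60 and Chchd3 by 0.27, among neighbours with medians of 0.38 and 0.35 (0.22 and -0.083 relative to them), and Micos10 (listed as Minos1) fell by 0.24 (-0.068 relative to its neighbours, adjusted p = 0.292). With the neighbours' medians removed, 1 gene of that list was called higher and 0 lower (limma, adjusted p under 0.05). That fit called 29.9% of all tested genes in each direction. Genes of mitochondrial transport along microtubules gave 2 higher and 2 lower of 6: Rhot2, an outer membrane GTPase, rose by 0.51 (0.17 relative to its neighbours), and the adaptor genes Trak1 and Trak2 fell by 0.41 and 0.30. Mitophagy genes gave 3 higher and 3 lower of 8. Beside these lists of MICOS, transport and mitophagy, 32.6% of all tested genes were called in each direction. Pink1, the kinase that marks damaged mitochondria, had 374.4 and 373.6 normalized counts in the libraries labelled KO, against 826.4, 795.3 and 802.1 in those labelled WT, and fell by 1.11 on the log2 scale (limma, adjusted p = 2.5e-11). The receptor genes Fkbp8 and Bcl2l13 rose by 0.66 and 0.77, and relative to their neighbours were at 0.11 and 0.51.

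Beside Polg, the other genes of mitochondrial DNA replication gave 6 higher and 1 lower of 12 (median 0.13). The share of all tested genes was 32.6% in each direction. Twnk (listed as Peo1), the helicase of the mitochondrial replication fork, had 2972 and 3176 normalized counts in the libraries labelled KO, against 1547, 1569.9 and 1518 in those labelled WT, and rose by 0.99 (limma, adjusted p = 1.3e-13). The single-strand binding protein gene Ssbp1 rose by 0.75 (0.45 relative to its neighbours) and the ligase gene Lig3 by 0.30. Polg2, the accessory subunit of the polymerase, had 58.4 and 105.6 normalized counts in the libraries labelled KO, against 110.5, 94.0 and 119.3 in those labelled WT (log2 fold change -0.45, adjusted p = 0.0722). KO replicate 1 was the low one, and without KO replicate 2 Polg2 passed at -0.87 (adjusted p = 0.0062), while without KO replicate 1 it was at -0.024 (adjusted p = 0.927). The neighbours of Twnk had a median of 0.51, and relative to them it was at 0.48.

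Beside Tfam, the genes of mitochondrial transcription and RNA gave 2 higher and 3 lower of 10 (median -0.17). Over all tested genes the share was 32.6% in each direction. Polrmt, the RNA polymerase that TFAM recruits, had 2749.8 and 2776 normalized counts in the libraries labelled KO, against 4309, 4305 and 4325 in those labelled WT, and fell by 0.64 (limma, adjusted p = 8.2e-12), with a value of -0.35 relative to its neighbours. Tfb2m, which opens the promoter with TFAM, was at -0.052 (adjusted p = 0.509). Mterf4 (listed as Mterfd2) fell by 0.99 and the RNA stability factor gene Lrpprc rose by 0.35, the size of its neighbours' median of 0.37.

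Of the biogenesis regulators other than Nrf1 and Ppargc1b, 4 of 14 rose and 5 fell (median -0.033). Among all tested genes 32.6% rose and 32.6% fell. Gabpa, the DNA-binding subunit of GABP, had 6997 and 7086 normalized counts in the libraries labelled KO, against 5470.2, 5799 and 5889 in those labelled WT, and rose by 0.30 (limma, adjusted p = 1.3e-06). Its neighbours had a median of 0.025. Esrra, a nuclear receptor that works with PGC-1 coactivators, was at 0.096 (adjusted p = 0.242), and relative to its neighbours it passed in the other direction at -0.22 (adjusted p = 0.012). Prkaa2, an AMP kinase subunit gene, rose 4.49-fold (limma, adjusted p = 2.2e-09), with 203.7 and 172.4 normalized counts in the libraries labelled KO, against 39.8, 43.5 and 39.8 in those labelled WT. Perm1 (listed as 2310042D19Rik), a regulator described in muscle, fell to 100.2 and 77.8 normalized counts in the libraries labelled KO, against 329.7, 315.6 and 330.3 in those labelled WT (adjusted p = 6.7e-11).

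Genes of the outer membrane channel, protein import and related content gave 7 higher and 1 lower of 12 (median 0.14). All tested genes gave 32.6% higher and 32.6% lower. Tomm20, an import receptor, was at 34.4 and 35.5 RPKM in the libraries labelled KO, against 18.3, 18.3 and 18.4 RPKM in those labelled WT, and rose by 0.94 on the log2 scale (limma, adjusted p = 1.1e-14). Its neighbours had a median of 1.00, and relative to them it was at -0.059 (adjusted p = 0.236). Vdac3 rose by 0.90 and Timm44 by 0.66, among neighbours with medians of 0.46 and 0.40, and relative to them were at 0.44 and 0.26.

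**Figure D4:**
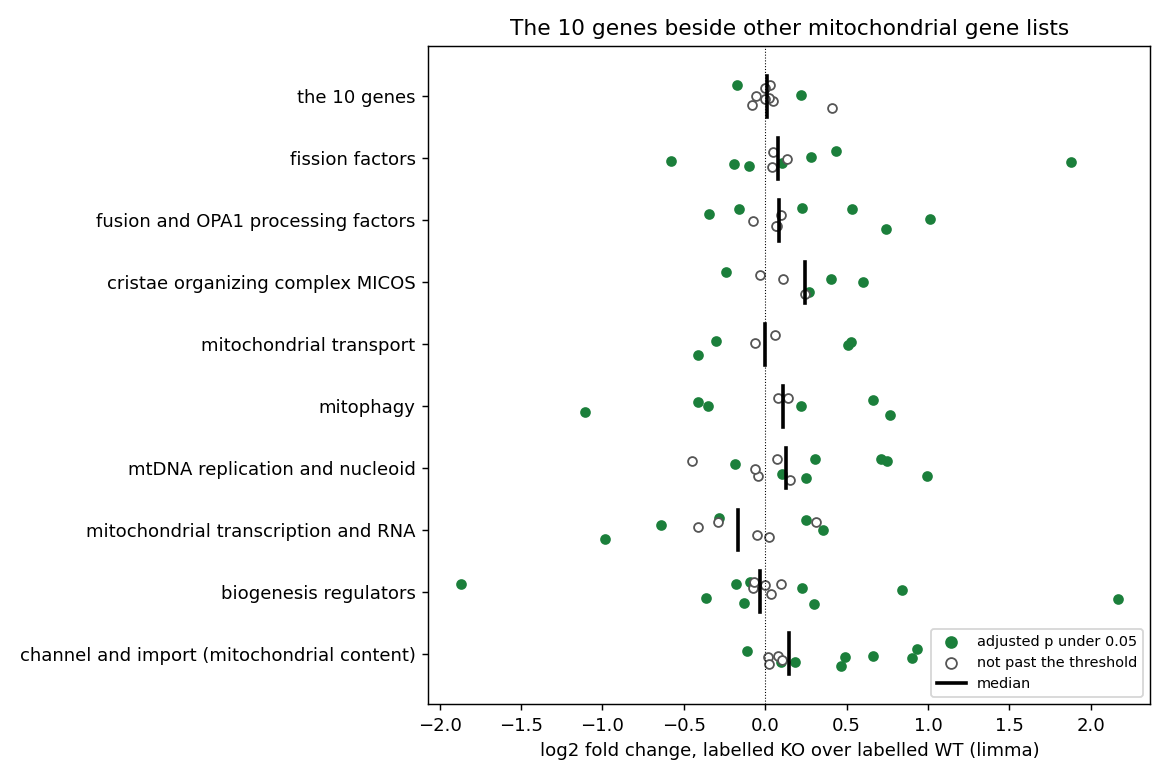
Log2 fold change between the libraries labelled KO and those labelled WT for the 10 genes (top) and the tested genes of 9 related lists (below), as filled circles where the adjusted p is under 0.05 and open circles otherwise, with the median of each list as a bar. The 10 genes lie between -0.17 and 0.41 with 2 filled circles, and the lists hold 56 filled circles among 89 genes.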

How the data were processed

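Poly-T selected RNA of 5 libraries (2 labelled KO, 3 labelled WT by their titles) was prepared with the Nextera XT kit for an Illumina NextSeq, per the labels' protocols. STAR, DESeq2 and the build mm10 are named in the submitters' processing notes, without roles. The counting program, its annotation and any strand setting were not given in the sources used here.

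Signal values, as the authors deposited them, are read counts scaled by library, judged by the values: in each library 100% were whole multiples of a step within 0.1 reads. The authors also deposited RPKM values, which use the unscaled reads and a fixed length per gene (1102 to 6002 bases for the 10 genes). Per the file headers, the authors' table further gives a log2 fold change, a Wald statistic (a score) and p-values with adjusted p-values, used here as an alternative.

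Normalized values do not suit a count model, so log2(value + 1) was fitted by limma 3.58.1 under R 4.3.3, its prior following a trend, for the 13062 genes reaching 10 in at least 2 libraries, genotype being the sole factor. The fold change of low genes is understated on this scale. A gene was called where p, two-sided and adjusted after Benjamini-Hochberg over all tested genes, was below 0.05. RPKM ratios of 5 pairs were tested by exact permutation. The smallest two-sided p it allows is 0.2.

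The 10 genes and the 9 lists were chosen with earlier results of these data known. From each list, up to 3 called genes with the smallest adjusted p are named, with fixed partners (Mief1, Mief2, Gdap1, Oma1, Yme1l1, Polg2, Twnk, Polrmt, Tfb2m, Ppargc1a, Pprc1, Gabpa and Esrra) whatever their values, and the 3 genes most like the called gene with the largest difference. Of 97 listed genes 96 were found, 10 by an older symbol and 9 by a RefSeq synonym. Positions came from RefSeq (GRCm38.p6, the assembly of mm10) for 23061 genes. Sequences are RefSeq's.

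Alternatives were TMM and median-ratio rescaling, other filters and pseudocounts, each library left out, the replicate number as a block, the RPKM scale, subtraction of the neighbours' median, a stricter threshold, the deposited comparison, and edgeR 4.0.16 and DESeq2 1.42.0 on whole reads of 4 libraries. Count tests omit WT replicate 2 and so rest on 4 libraries, although the values of that library also came to whole reads at its step (0.989). By edgeR, 4147 genes were higher under the label KO and 3956 lower. Removal of a length trend was added after seeing the data. The fit was tested on simulated data.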

Additional observations from a re-analysis of the deposited data

How the results depend on the processing

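The call of Mfn2 (lower) held under all 19 other settings tried (log2 fold change -0.21 to -0.10, adjusted p 0.00026 to 0.0313). Nrf1 stayed called under 18 of 19 and reversed to -0.10 (adjusted p = 0.0693) with the neighbours' median removed. That setting gave 3 of the 10 genes called higher in the libraries labelled KO, against 29.9% of all tested genes. It turned Tfam to 0.26 and Polg to 0.26. Of the partners it turned Chchd3 to -0.083, Tfb2m to 0.094, Lrpprc to -0.012, Ppargc1a to -0.061, Esrra to -0.22 and Tomm20 to -0.059. With the length trend removed, Fis1 was at -0.033, Tfam at 0.021 and Polg at 0.040. With the replicate number as a block, Tfam was at 0.031, Polg at 0.025 and Ppargc1a at -0.032, and the 2 calls stood. The labels do not say that the numbers pair samples, and deviations from the group means of same-numbered libraries correlated at -0.0097 (replicate 1) and -0.0050 (replicate 2). The replicate block moved the rises among fission factors to 2.

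Each library was left out in turn. The log2 fold change ran from -0.012 to 0.076 for Dnm1l, -0.040 to 0.087 for Fis1, -0.097 to 0.092 for Tfam and -0.040 to 0.029 for Polg. Of the partners, it ran from -0.11 to 0.0037 for Tfb2m, -0.25 to 0.32 for Ppargc1a and -0.011 to 0.20 for Esrra. The log2 difference of the RPKM ratio ran from -0.015 to 0.063 for Mff over Fis1 and -0.13 to 0.12 for Tfam over Polg. Fits without KO replicate 1 or 2 leave 1 library labelled KO, assumed to vary like the others.

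Among the lists, rises among fission factors numbered 1 to 3 without a library, 1 with DESeq2, a threshold of 0.01 or the deposited comparison, and 2 with edgeR or no filter. Falls among mitochondrial DNA replication genes numbered 0 to 1 without a library, 0 with DESeq2, edgeR, the threshold of 0.01 or the deposited comparison, and 2 with the length trend or neighbours' median removed. Rises among transcription and RNA genes numbered 1 to 2 without a library, and 1 with DESeq2, edgeR, the threshold of 0.01, no filter, the deposited comparison, or the length trend or neighbours' median removed. Falls among biogenesis regulators numbered 2 to 5 without a library, 2 with DESeq2 and 3 with edgeR, the threshold of 0.01 or the deposited comparison. Rises in transport numbered 1 to 2 without a library. With the neighbours' median removed, falls numbered 1 in the fusion list, 0 in MICOS and 0 in channel and import, and rises 1 in MICOS and 1 in transport. The cause was not tested.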
